A study of Spodoptera frugiperda with 3 samples.

Results

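The 71 unigenes described here are those whose best protein match in the NR database carries a name of DNA replication, DNA repair or the cell cycle, out of 30327 unigenes in the 3 deposited tables and 8310 of these with an NR match. They were chosen by words in the name of the match alone, such as DNA polymerase, replication licensing, origin recognition, mismatch repair, cyclin or Fanconi. Names with RNA-directed, kinesin or histone were left out. The samples were whole bodies of wild-type larvae of *Spodoptera frugiperda*, the fall armyworm, kept at 4 °C (T4) or 40 °C (T40) for 16 h, with a control at 25 °C (T25) whose duration is not given. The label states the fourth instar for all 3 groups, while the methods state the fifth at RNA extraction. Each temperature has 1 library made from 5 pooled larvae, so no difference can be set against the spread between larvae, and no p-value is given.

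Before a cell divides, the origin recognition complex marks starting points on the DNA, Cdt1 helps to load the Mcm helicase there, and cyclins with their kinases start synthesis. DNA polymerases then copy the strands with the help of a sliding clamp, a clamp loader (replication factor C) and the protein that coats single strands (replication protein A), on nucleotides that ribonucleotide reductase provides. Repair enzymes remove mismatches, damaged bases and crosslinks, and checkpoints hold the cycle until this work is done. In a caterpillar, many tissues grow by endoreplication, in which DNA is copied without division, while imaginal discs, neuroblasts, blood cells and gut stem cells divide. The roles given below are those known for the homologs in other animals or in yeast.

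A unigene is a clustered transcript that was assembled without a genome. Several can therefore be pieces of 1 gene, and reads may be split between close paralogs. A unigene is called listed below where the authors placed it in their table of a comparison, which for every row meant a P under 0.05 before adjustment and a linear fold above 2. Fold differences are ratios of RSEM read counts divided by the effective library size of each library. The 95% intervals are exact (Clopper-Pearson), cover counting error only and do not cover variation between larvae. A count for the library outside a comparison is known only where another table lists the unigene, so it is missing for part of the members. Of the 71, 32 were listed in 1 comparison only and are seen here through that difference alone. The members with a known count held 21199 reads in T4 (56 of the 71), 23467 in T25 (60) and 31962 in T40 (65).

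Unigenes that mark the tissues of the whole body were present, and their levels differed between the libraries. Of 41 muscle unigenes, the 33 with all counts known summed to 42380 RPM (reads scaled to an effective library size of 1000000) in T4, 59010 in T25 and 7967 in T40, and 27 of the 35 listed in T40/T25 were lower. Of 9 fat body unigenes, 8 summed to 179300, 87400 and 24030 RPM in the same order, and 8 of 9 listed were lower in T40/T25. Midgut unigenes (66 of 72) summed to 5769, 5109 and 13120, with 31 higher and 26 lower in T40/T25. Cuticle, hemocyte, neuron and silk gland lists also had their lowest sums in T40. Unigenes at 0 in a library are not listed, so no marker is at 0 in these tables. The part of tissue make-up in the differences below was not tested, and in whole bodies fewer cells of a type and less RNA per cell cannot be told apart.

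The names needed a check against the other databases in the tables. By their names, 50 of the 71 have a role in replication, repair or the division cycle, a division made after the values had been seen. Of the other 21, 12 are cyclins and kinases of transcription, splicing, signalling or membrane traffic, and 5 match the words with another meaning, such as prostacyclin receptor or ribosome-recycling factor. The last 4 are named DNA ligase 1, also in their matches in the KEGG database. Of these, 0 have a DNA ligase domain in Pfam and 0 have DNA ligase in their nucleotide match. They are described apart from the ligases below. By species, 65 of the NR matches were to *Spodoptera litura*, and there were 67 distinct matches among the 71.

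At 40 °C, most listed members were higher than at 25 °C. The replication machinery, cyclin E and a cyclin D3 stood among the higher ones, and a polymerase alpha subunit, Orc3, the mismatch repair endonuclease PMS2 and cyclin G among the lower ones. In T40/T25, 45 members were listed (66.2% of all unigenes and 73.7% of those with an NR match were listed), of which 32 were higher and 13 lower in T40. This is 71.1% higher, against 47.1% of all listed unigenes and 53.6% of those with an NR match. Their median log2 ratio was 1.58, against -1.51 over all listed unigenes and 1.40 over those with an NR match. Listing removes folds under 2, so a median of listed unigenes lies on the side that holds most of them. Its sign therefore restates the shares and is not a further result. Of the 31 listed members with a role in replication, repair or the division cycle, a division made after the values were seen, 24 were higher (77.4%). The planned exclusion, by a word list of other meanings, left 34 listed members, 23 higher and 11 lower. A difference of at least 4-fold was found for 15 higher and 10 lower of the 45. Over all listed unigenes 34.7% were at least 4-fold higher and 40.3% at least 4-fold lower, and over those with an NR match 34.9% and 32.1%.

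At 4 °C, members went both ways. In T4/T25, 25 members were listed (background 40.1% of all unigenes and 41.1% with an NR match), with 11 higher and 14 lower in T4. The higher share was 44%, against 55.1% of all listed unigenes and 49.4% of those with an NR match, and the median log2 ratio was -1.55, against 1.58 and -1.25. The signs of these medians again only restate which side holds most listed unigenes. At least 4-fold apart were 8 higher and 9 lower members, where 40% and 30.2% of all listed unigenes and 33.6% and 27.6% of those with an NR match passed this limit. Between the extremes, T40/T4 listed 43 members (background 62.3% and 66%), with 29 higher and 14 lower in T40. The higher share was 67.4%, against 45.4% and 56.6%. In it, 13 members were at least 4-fold higher (30.9% and 31.5%) and 11 at least 4-fold lower (41.6% and 30.7%). The 3 comparisons share libraries pairwise and are not independent of each other.

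Counts in all 3 libraries are known for 39 members. Of these, 22 had their highest scaled count in T40 (56.4%, against 45.8% of 5801 unigenes with an NR match and 36.4% of all 18805 with known counts), 11 in T25 and 6 in T4. The lowest value lay in T25 for 14 (35.9%), in T40 for 13 (33.3%) and in T4 for 12 (30.8%). Over unigenes with an NR match these shares were 36.8%, 38.6% and 24.7%. Members were thus often highest in T40, while the lowest library differed from one to the next, as it did over unigenes with an NR match.

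**Figure D1:**
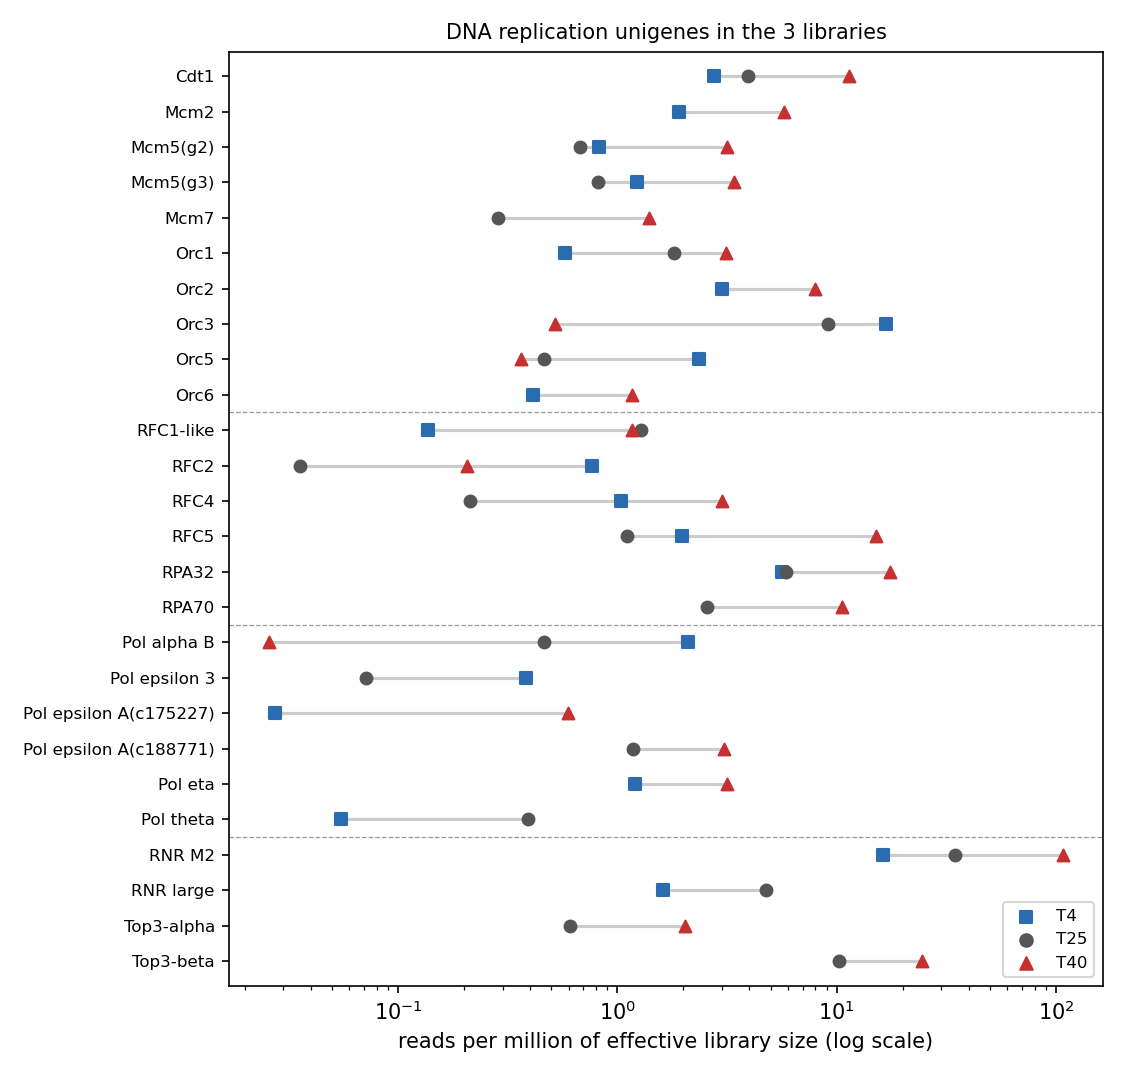
RPM, reads scaled to an effective library size of 1000000 (log axis), of the 26 DNA replication unigenes, with a square for T4, a circle for T25 and a triangle for T40, and dashed lines between the roles. Triangles lie to the right for most unigenes, while Orc3, Orc5 and the polymerase alpha subunit B have theirs at the left end. A missing symbol is a count that the tables do not give.

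Of the 26 unigenes of DNA replication, T40/T25 listed 14, and 12 of these were higher at 40 °C (85.7%, against 53.6% of listed unigenes with an NR match). The 26 take in polymerases eta and theta and the topoisomerases, and the Mcm5 unigenes may be pieces of 1 transcript. In T40/T4, 14 of the 18 listed were higher (77.8%, against 56.6%), and in T4/T25 5 were higher and 4 lower (55.6% higher, against 49.4%). Among the 10 unigenes of origin recognition and licensing, T40/T25 listed 4 higher and 1 lower, and T40/T4 7 higher and 2 lower.

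The Mcm proteins form the ring-shaped helicase that opens the DNA, and all of their unigenes among the members were higher in T40. Mcm7 was listed only in T40/T25 and Mcm2 only in T40/T4, so both are seen through their difference in T40. Other Mcm subunits are not among the members. Mcm5 had 30 reads in T4, 19 in T25 and 122 in T40 in the unigene c176724_g2_i1, and T40 was 4.66-fold higher than T25 (95% counting interval 2.86 to 8.0). A further Mcm5 unigene of the same assembly cluster, c176724_g3_i1, had 45, 23 and 131 reads and was 4.13-fold higher (2.64 to 6.74). The 2 may be pieces of 1 transcript. Mcm7 (c186710_g1_i3) had 8 reads in T25 and 54 in T40, which is 4.89-fold (2.31 to 11.9), and Mcm2 (c187114_g1_i1) had 70 in T4 and 223 in T40, which is 3.01-fold (2.29 to 3.99). Cdt1 (c177677_g2_i1), the loader of this helicase, followed the same order between T25 and T40, with 101, 111 and 441 reads in T4, T25 and T40. Its T40 value was 2.88-fold higher than T25 (2.33 to 3.58) and 4.12-fold higher than T4 (3.31 to 5.17).

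The subunits of the origin recognition complex did not move together. Orc1 (c137652_g1_i2), a subunit of the ATP-using core, had 21 reads in T4, 51 in T25 and 121 in T40. T4 was 3.16-fold lower than T25 (1.87 to 5.54) and listed, and T40 was 1.72-fold higher than T25 (1.23 to 2.44) and not listed. Orc3 (c175271_g1_i5) had the opposite order, with 614, 256 and 20 reads, equal to an FPKM of 8.03, 4.63 and 0.29. Its T40 level was 17.7-fold lower than T25 (11.2 to 29.4) and 32.5-fold lower than T4 (20.9 to 53.6). Orc5 (c17237_g1_i1) was high in T4, with 86 reads in T4 against 13 in T25 and 14 in T40, so that T4 was 5.08-fold higher than T25 (2.82 to 9.93). For Orc2 (c182511_g2_i1) and Orc6 (c175364_g1_i2) the T25 count is unknown. Orc2 had 110 reads in T4 and 308 in T40, and Orc6 had 15 and 45.

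Replication factor C opens the sliding clamp and places it on DNA, and its subunits work as 1 complex. RFC5 (c169874_g1_i2) had 72 reads in T4, 31 in T25 and 587 in T40, equal to an FPKM of 1.78, 1.06 and 15.88. T40 was 13.7-fold higher than T25 (9.57 to 20.4) and 7.70-fold higher than T4 (6.02 to 9.97). RFC4 (c185767_g1_i3), listed in all 3 comparisons, had 38, 6 and 116 reads and was 14.0-fold higher in T40 than in T25 (6.25 to 39.0) and 4.86-fold higher in T4 (2.04 to 14.1). The other subunits differed from these. RFC1-like (c187331_g2_i1) had 5 reads in T4, 36 in T25 and 45 in T40, so that it was 9.38-fold lower at 4 °C than in the control (3.67 to 30.6) and not listed at 40 °C. RFC2 (c185718_g1_i2) rests on few reads, 28 in T4, 1 in T25 and 8 in T40, and its ratio of T4 to T25, 21.5, has an interval of 3.55 to 879. The 4 named subunits of this complex thus had 3 different orders of the libraries.

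Replication protein A was higher in T40 in both subunits found, of which RPA70 was listed in T40/T25 only and is seen through that difference. RPA32 (c179809_g3_i1) had 206 reads in T4, 165 in T25 and 674 in T40, with an FPKM of 6.3, 7.0 and 22.47. It was 2.96-fold higher in T40 than in T25 (2.49 to 3.53), while T4 was 1.04-fold lower than T25 and not listed. RPA70 (c187379_g1_i1) had 72 reads in T25 and 407 in T40, 4.10-fold (3.18 to 5.34).

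The replicative polymerases gave both directions. Subunit B of DNA polymerase alpha (c186460_g5_i1), which belongs to the complex that starts each new strand with a primer, had 77 reads in T4, 13 in T25 and 1 in T40. It was 4.55-fold higher at 4 °C than at 25 °C (2.51 to 8.93). At 40 °C it was 17.9-fold lower than at 25 °C, with an interval of 2.69 to 762 since T40 holds 1 read. It is the only member listed in opposite directions at 4 and 40 °C. The catalytic subunit A of polymerase epsilon, the leading-strand enzyme in yeast and human cells, appeared in 2 unigenes, and both were higher in T40. Each was listed in 1 comparison only, T40/T25 or T40/T4, and is seen through that difference. The unigene c188771_g1_i2 had 33 reads in T25 and 119 in T40 (2.61-fold, 1.76 to 3.97), and c175227_g1_i1 had 1 in T4 and 23 in T40. Subunit 3 of the same enzyme (c170559_g1_i1) had 14 reads in T4 and 2 in T25. Of the polymerases that act on damaged DNA, polymerase eta (c174668_g1_i4), which copies past ultraviolet lesions, had 44 reads in T4 and 122 in T40. This was 2.62-fold higher in T40 (1.84 to 3.78). Polymerase theta (c157026_g2_i1), an enzyme of end joining, had 2 reads in T4 and 11 in T25.

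Among enzymes of nucleotide supply and DNA topology, the small subunit M2 of ribonucleotide reductase (c182956_g5_i8) had the most reads. It reduces ribonucleotides to the building blocks of DNA and had 594 reads in T4, 974 in T25 and 4149 in T40, with an FPKM of 6.51, 14.77 and 49.74. T40 was 3.09-fold higher than T25 (2.88 to 3.31), and T4 was 2.14-fold lower than T25 (1.93 to 2.37) without being listed. Its partner, the large subunit (c184549_g1_i1), had 59 reads in T4 and 133 in T25, which is 2.94-fold lower at 4 °C (2.14 to 4.06). Both subunits were thus lower in T4 than in T25, and the T40 count of the large one is unknown. The type of topoisomerase that separates linked strands was higher at 40 °C in both forms. Both were listed in T40/T25 only and are seen through that difference. Topoisomerase 3-alpha (c185657_g1_i1) had 17 reads in T25 and 79 in T40 (3.37-fold, 1.98 to 6.07), and topoisomerase 3-beta (c188985_g2_i1) had 288 and 950 (2.39-fold, 2.09 to 2.74).

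**Figure D2:**
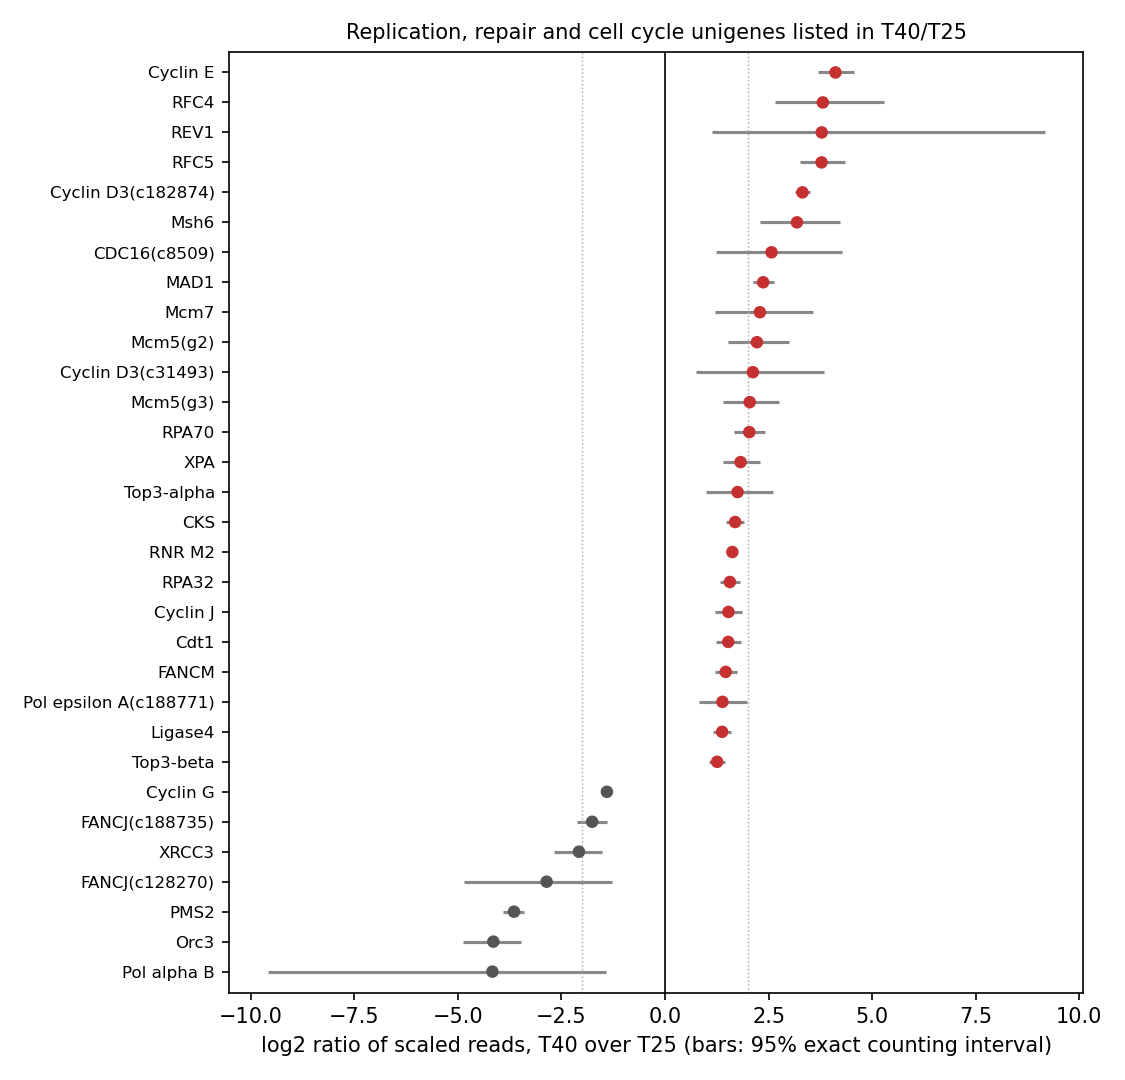
Log2 ratio of scaled reads, T40 over T25, of the 31 unigenes with a role in replication, repair or the division cycle that were listed in T40/T25, with 95% exact counting intervals as bars. Red points are the 24 higher and gray points the 7 lower in T40, and dotted lines mark a 4-fold difference. Cyclin E is the highest and the polymerase alpha subunit B the lowest, the latter with a wide interval from 1 read in T40.

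DNA repair was divided. Of its 12 unigenes, T40/T25 listed 5 higher and 4 lower, T4/T25 listed 2 higher and 5 lower, and T40/T4 listed 6 higher and 2 lower. The higher shares were 55.6%, 28.6% and 75%, against 53.6%, 49.4% and 56.6% of listed unigenes with an NR match. The mismatch repair proteins PMS2 and Msh6 had opposite profiles. Msh6 takes part in finding mismatches in newly copied DNA, and PMS2 cuts the strand that carries the error. PMS2 (c173017_g2_i1) had 335 reads in T4, 1332 in T25 and 147 in T40, with an FPKM of 2.96, 16.29 and 1.42, so the control stood far above both extremes. It was 5.18-fold lower in T4 (4.59 to 5.85) and 12.5-fold lower in T40 (10.5 to 14.9), and all 3 comparisons listed it. Msh6 (c185520_g2_i5) had the reverse, with 130 reads in T4, 11 in T25 and 138 in T40, 9.08-fold higher in T4 (4.91 to 18.6) and 9.10-fold higher in T40 (4.93 to 18.6).

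Proteins of crosslink repair and homologous recombination also differed from each other. The helicase FANCJ was lower at both extremes in 2 unigenes. The unigene c188735_g2_i2 had 98 reads in T4, 228 in T25 and 93 in T40, 3.03-fold lower in T4 (2.38 to 3.88) and 3.38-fold lower in T40 (2.65 to 4.35), and c128270_g1_i1 had 7, 21 and 4. XRCC3 (c153383_g1_i1), a protein of homologous recombination, was likewise highest in T25, with 54, 107 and 35 reads, and was 4.22-fold lower in T40 (2.85 to 6.37). The DNA translocase FANCM (c188546_g1_i5) was higher at 40 °C, with 172, 157 and 598 reads (2.76-fold over T25, 2.31 to 3.31).

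Excision repair and end joining lay on the higher side in T40. XPA (c183028_g4_i2), which checks damage in nucleotide excision repair, had 88 reads in T4, 52 in T25 and 254 in T40 and was 3.54-fold higher in T40 than in T25 (2.62 to 4.87). XPF (c174826_g1_i7), the nuclease that cuts beside the lesion, had 176 reads in T4 and 452 in T40 (2.42-fold, 2.03 to 2.90). DNA ligase 4 (c185494_g4_i3), which seals breaks in end joining, had 219, 230 and 825 reads and was 2.60-fold higher in T40 than in T25 (2.24 to 3.02). REV1 (c236849_g1_i1), a translesion polymerase, had 4, 1 and 19 reads, too few for a narrow interval (13.8-fold over T25, 2.19 to 572).

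**Figure D3:**
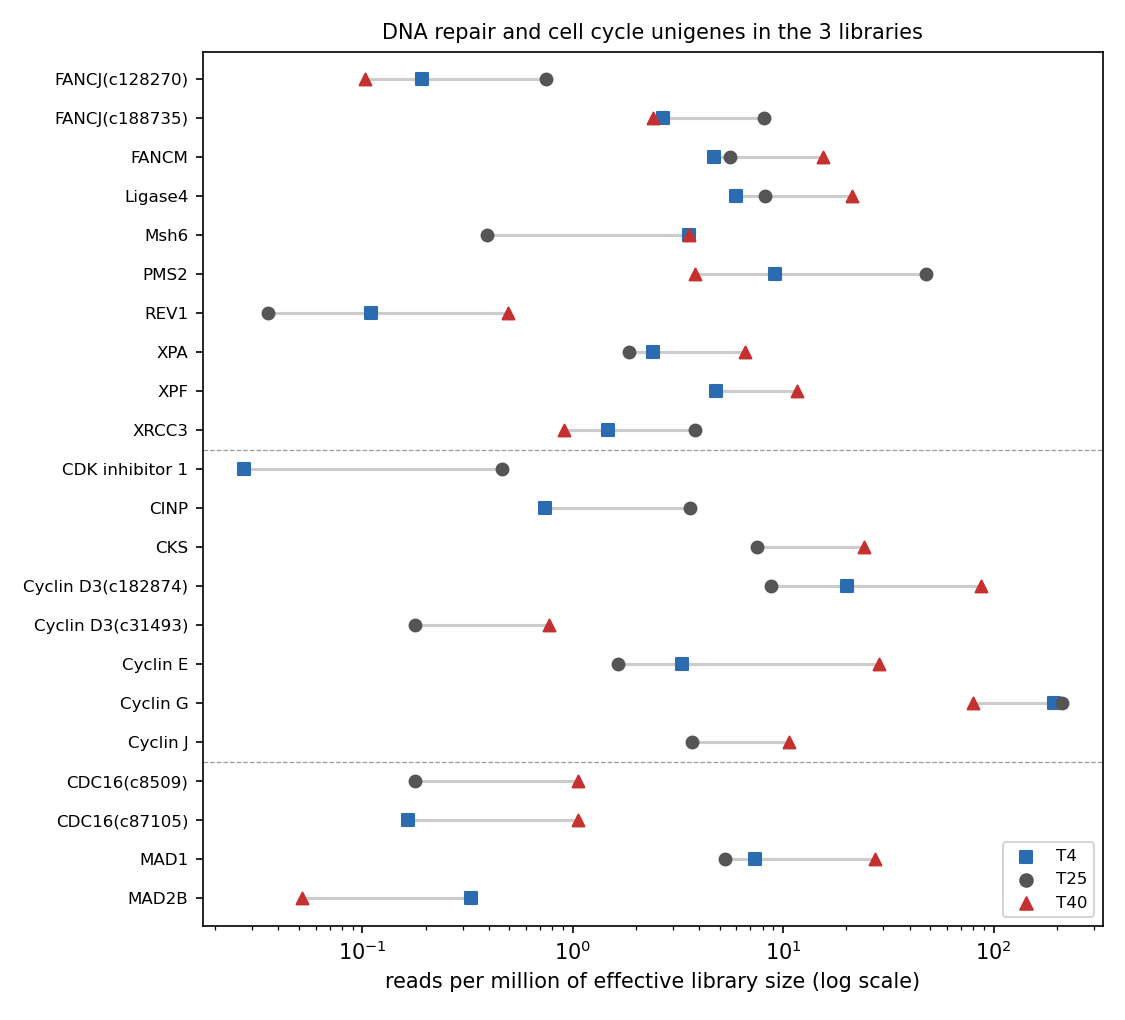
RPM, reads scaled to an effective library size of 1000000 (log axis), of 10 DNA repair and 12 cell cycle unigenes, with a square for T4, a circle for T25 and a triangle for T40, and dashed lines between repair, cyclins with kinase regulators, and mitotic proteins. PMS2, FANCJ and XRCC3 have the circle at the right end and Msh6 at the left end, while cyclin E, cyclin D3 and MAD1 have the triangle at the right end.

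Cyclins that act before DNA synthesis were higher at 40 °C. Cyclin E (c185658_g6_i7), which with its kinase starts the synthesis phase and drives endocycles in *Drosophila*, had 121 reads in T4, 46 in T25 and 1099 in T40, with an FPKM of 0.74, 0.39 and 7.39. T40 was 17.3-fold higher than T25 (12.9 to 23.8), the highest ratio in T40/T25 among the members of replication, repair and division roles. Cyclin D3 (c182874_g1_i3), the growth-responsive cyclin of the same phase, had 733, 246 and 3383 reads and was 9.97-fold higher in T40 than in T25 (8.76 to 11.4). Neither was listed in T4/T25, where T4 was 2.02-fold higher for cyclin E (1.43 to 2.90) and 2.29-fold higher for cyclin D3 (1.98 to 2.65). A short D3 unigene (c31493_g1_i1) had 5 reads in T25 and 30 in T40. Cyclin J (c182769_g2_i1), known from the female germ line in *Drosophila*, had 103 reads in T25 and 411 in T40 (2.89-fold, 2.33 to 3.63). The kinase-binding subunit CKS (c178771_g1_i1) had 210 and 937 (3.23-fold, 2.78 to 3.78).

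Cyclin G (c184808_g1_i1) was the exception in this group, and had more reads than the others in T4 and T25 where their counts are known. It has been tied to growth and metabolism in *Drosophila* and had 7083 reads in T4, 5903 in T25 and 3081 in T40, with an FPKM of 57.06, 65.72 and 27.14. T4 and T25 lay close together (T4 1.09-fold lower, 1.05 to 1.12), and T40 was 2.64-fold lower than T25 (2.53 to 2.76). CDK inhibitor 1 and CINP were listed in T4/T25 only, both lower at 4 °C. The inhibitor (c150575_g1_i1) had 1 read in T4 and 13 in T25, and CINP (c179469_g1_i1), a protein that binds CDK2, had 27 and 101 (4.87-fold lower in T4, 3.16 to 7.75). The T40 count of both is unknown.

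Of the mitotic proteins, the spindle checkpoint protein MAD1 (c185256_g3_i1) had 268 reads in T4, 148 in T25 and 1055 in T40 and was 5.17-fold higher in T40 than in T25 (4.35 to 6.18). CDC16, a subunit of the ubiquitin ligase that ends mitosis, was found in 2 short unigenes. The one listed in T40/T25 (c8509_g1_i1) had 5 reads in T25 and 41 in T40, and the one listed in T40/T4 (c87105_g1_i1) had 6 in T4 and 41 in T40. MAD2B (c206167_g1_i1), which also serves translesion synthesis with REV1, had 12 reads in T4 and 2 in T40. None of the 4 was listed in T4/T25.

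**Figure D4:**
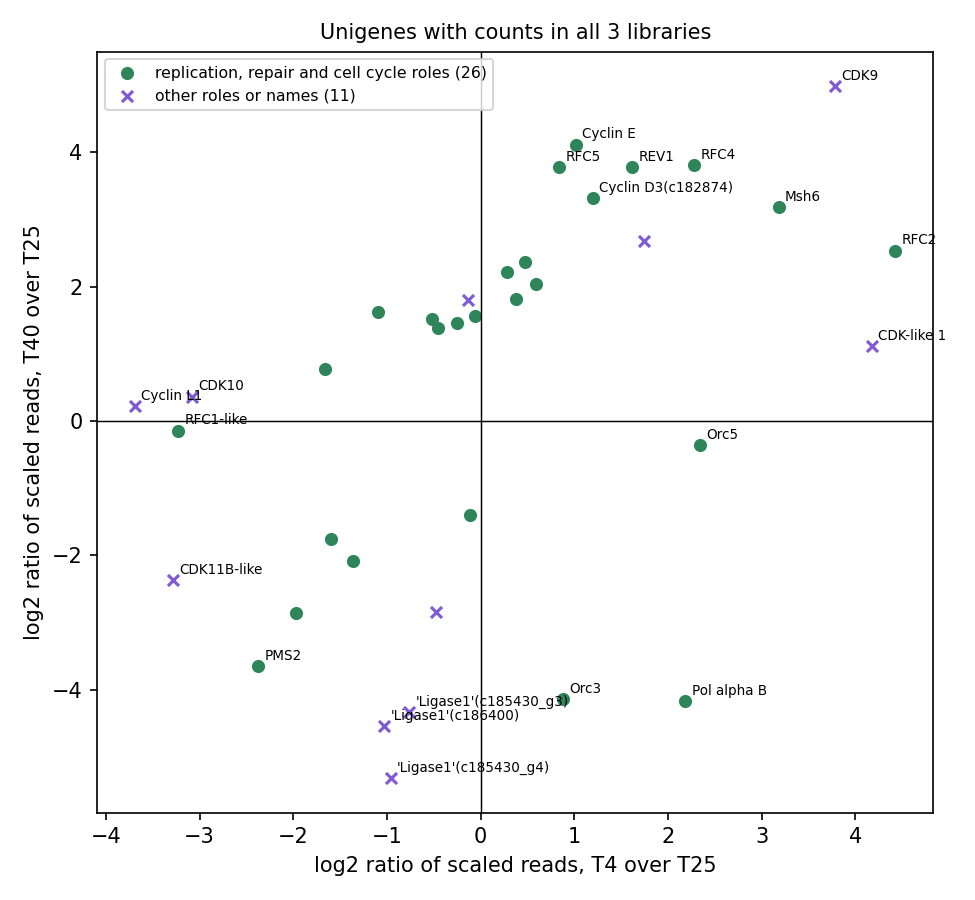
Log2 ratio of scaled reads of T4 over T25 (horizontal) and of T40 over T25 (vertical) for 37 of the 39 members with counts in all 3 libraries, with circles for the 26 of replication, repair or division roles and crosses for the 11 others. Both axes share the T25 library, so a low or high T25 count moves a point along both. Subunit B of polymerase alpha and Orc3 lie at the lower right, PMS2 at the lower left and Msh6 at the upper right.

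The cyclins and kinases that act outside the division cycle held some of the widest differences. CDK9 (c184161_g1_i1), which releases paused RNA polymerase II, had 125 reads in T4, 7 in T25 and 306 in T40, 13.7-fold higher in T4 than in T25 (6.46 to 34.8) and 31.7-fold higher in T40 (15.2 to 79.5). Cyclin L1 (c174589_g3_i1), a cyclin of splicing, was low at 4 °C, with 58 reads in T4, 574 in T25 and 925 in T40 (12.9-fold below T25, 9.83 to 17.2). CDK10 (c179821_g1_i1) had a like order with 37, 241 and 428 reads, and T4 was 8.48-fold lower than T25 (5.98 to 12.3). The CDK-like 1 unigene (c168857_g1_i2) had 47 reads in T4, 2 in T25 and 6 in T40. The 12 members of this kind were listed 6 higher and 1 lower in T40/T25, and 3 higher and 3 lower in T4/T25. The higher shares were 85.7% and 50%, against 53.6% and 49.4% of listed unigenes with an NR match. Several of the 12 are CDK14 unigenes of 1 assembly cluster and may be pieces of 1 gene.

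Of the 4 unigenes named DNA ligase 1, 3 were far lower at 40 °C. The unigene c186400_g1_i1 had 3569 reads in T4, 5600 in T25 and 332 in T40, 23.3-fold lower in T40 than in T25 (20.8 to 26.1). The unigene c185430_g3_i2 had 1950, 2544 and 174 reads (20.2-fold lower, 17.3 to 23.7), and c185430_g4_i1 had 193, 288 and 10 (39.7-fold lower, 21.3 to 83.7). Their KEGG matches also carry the ligase name, while their Pfam, gene ontology, UniProt and nucleotide annotations do not. The 2 from the c185430 cluster carry a RIC3 domain, known from a chaperone of acetylcholine receptors, and the gene ontology match of c186400_g1_i1 is the *Drosophila* gene sals, which sets the length of muscle filaments. They are lower in T40 as the muscle list is, and the part of muscle in their difference was not tested. The unigene c188554_g1_i5 went the other way, with 331 reads in T4, 76 in T25 and 670 in T40 (6.39-fold higher in T40 than in T25, 5.04 to 8.21). Its nucleotide match is a variant of the same *Spodoptera litura* gene as that of c186400_g1_i1, so the 2 may be forms or pieces of 1 gene.

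The 5 matches of other meaning were prostacyclin receptor, mitochondrial ribosome-recycling factor, the lipid flippase subunit CDC50A, the splicing factor CDC5L and the tRNA-modifying ALKBH8. CDC5L (c184100_g2_i5) had 1176 reads in T4, 1253 in T25 and 241 in T40 and was 7.17-fold lower in T40 than in T25 (6.24 to 8.27). Without these 5, the kinases of other roles and the unigenes named DNA ligase 1, T40/T25 listed 24 higher and 7 lower.

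Other words for the same processes, matched to names that the selection does not catch, gave 53 further unigenes. The matches take in names of less direct ties, such as apoptosis-stimulating of p53 protein 1, BRCA1-associated protein and a partner of profilin. In T40/T25, 43 were listed, 32 higher and 11 lower, with a median log2 ratio of 1.94, and in T4/T25 13 were listed, 7 higher and 6 lower. Of all unigenes with an NR match, T40/T25 listed 73.7%, of which 53.6% were higher, with a median log2 ratio of 1.40. In T4/T25 it listed 41.1%, of which 49.4% were higher. The sliding clamp PCNA (c173358_g1_i1), the ring that holds polymerases on DNA, had 212 reads in T4, 122 in T25 and 810 in T40 (4.81-fold over T25, 3.97 to 5.87). Thymidylate synthase (c181711_g3_i1), which makes the thymine nucleotide, had 182, 118 and 652 reads (4.01-fold, 3.29 to 4.92), and dihydrofolate reductase (c185118_g4_i5), which supplies its cofactor, had 134, 216 and 954 (3.20-fold, 2.76 to 3.73). All 4 listed unigenes of nucleotide supply were higher in T40 than in T25, as were 9 of 10 for the clamp, primase, flap removal and chromatin assembly list and 12 of 16 for damage signalling and break repair. In the last list, the 4 lower ones are named apoptosis-stimulating of p53 protein 1 or BRCA1-associated protein. The higher ones take in RAD50-interacting protein 1 and several unigenes named ATR-like. The ATR-like ones may be pieces of 1 gene, so the 12 of 16 may count a gene more than once. Chk1, the kinase that halts the cycle when replication stalls, was higher in T40 in 2 unigenes. The unigene c162287_g1_i1 had 47, 21 and 277 reads (9.56-fold over T25, 6.13 to 15.7), and c184228_g2_i1 had 129, 40 and 369 (6.69-fold, 4.82 to 9.52).

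The primase list held a unigene with the same order of the libraries as polymerase alpha subunit B. The large primase subunit (c180478_g2_i1), which sits in the same complex, had 46 reads in T4, 13 in T25 and 1 in T40. With that 1 read, its T40 level was 17.9-fold lower than T25 with an interval of 2.69 to 762, and T4/T25 did not list it. The small subunit (c183997_g2_i3) had 60, 23 and 165 reads. A unigene named for chromosome segregation in meiosis (c181449_g5_i7), chosen after its values were seen, had 350, 78 and 5 reads, and its yeast namesake protects replication forks. Like subunit B, the large primase unigene and this one were highest in T4 and lowest in T40. Orc3 and Orc5 had the same order, so it was not particular to the primase complex.

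Genes of mitosis went both ways at 40 °C. In the list of mitotic kinases, checkpoint and anaphase-promoting complex, 6 were listed in T40/T25, 2 higher and 4 lower. Over the wider set of unigenes whose gene ontology terms name the mitotic cell cycle, chosen after the data were seen, 29 of 48 listed were higher and 19 lower. Among unigenes outside the members, such sets had 31 of 52 listed higher for DNA replication, 18 of 32 for DNA repair and 46 of 79 for the cell cycle. Of all listed unigenes with an NR match, 53.6% were higher, so these sets lay closer to the background than the name lists of replication genes. Polo kinase (c176000_g1_i2), which drives entry into and passage through mitosis, had 71 reads in T4, 105 in T25 and 27 in T40 (5.36-fold lower than T25, 3.49 to 8.52). The M-phase inducer phosphatase (c178226_g1_i7), which activates the mitotic kinase, had 189, 107 and 48 reads (3.07-fold lower, 2.17 to 4.42). Wee1 (c184103_g1_i1), which inhibits that kinase, had 202, 270 and 1275 (3.42-fold higher, 3.0 to 3.92). The anaphase-promoting subunit 4 (c174734_g1_i1) had 1018, 947 and 197 reads (6.63-fold lower, 5.68 to 7.77).

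Upstream of these genes, E2F factors, some activators and some repressors, control replication genes together with retinoblastoma proteins. Retinoblastoma-like protein 1 (c182064_g2_i6) had 584 reads in T4, 833 in T25 and 3487 in T40 (3.03-fold over T25, 2.81 to 3.28). The 2 unigenes named E2F2 went opposite ways, c171009_g1_i1 with 4546 reads in T25 and 2011 in T40, and c185036_g2_i1 with 692 and 2484. The germ line list had 7 higher and 4 lower in T40/T25. It takes in 9 of 25 unigenes with vitellogenin names, yolk proteins that the fat body makes, and without these 4 were higher and 3 lower. The neuroblast and imaginal disc list had 1 higher and 3 lower.

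Most members were of low abundance. Their median FPKM, which is a level per length of unigene, came to 1.18, 1.47 and 2.70 in T4, T25 and T40, against 2.49, 2.92 and 3.51 over unigenes with an NR match. Above an FPKM of 10 lay 3 members in T4, 7 in T25 and 12 in T40. Of the 71, 55 had at least 50 reads in 1 library and 16 had fewer, so that the ratios of the latter are wide. Members outside a table are not shown to be unchanged. Where both counts were known but the comparison did not list the unigene, the ratios ran from 0.468 to 3.07 in T4/T25 (20 members, median 0.940) and from 0.695 to 5.80 in T40/T25 (9 members, median 1.23).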

How the data were processed

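Per the methods, reads were trimmed with Trimmomatic 0.38, and Trinity built 1 assembly from the 3 libraries, which CD-HIT reduced to unigenes. The deposited expected counts are RSEM estimates that the authors made from Bowtie 1.1.2 alignments. In the deposited FPKM columns the authors scaled counts by unigene length and by library size. The deposited log2 values are the authors' counts divided by an effective library size, and they imply sizes of 36483914 (T4), 28015943 (T25) and 38643842 (T40) reads. The authors' p-values and fold columns were used only to see on what the tables were filtered, and none is printed. No listed unigene has a count of 0.

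Printed ratios are counts over these sizes with no pseudocount. Only direction, ratio and interval are given, since each temperature has 1 library. The interval was tested on simulated data. The lists of roles, related genes and tissues were matched to annotation words. Members and lists were chosen with earlier results of these data known.

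Named unigenes are, per comparison, the 12 highest and 12 lowest of those whose higher library held 50 reads or more (ranked with a pseudocount of 1), the member of most reads in each role, members listed in all 3 tables, and RFC2. Other members were named to complete their complexes, after their values were seen. The values of 2 DNA repair members are not reported here, and they enter counts and medians only. Alternatives were TMM scaling (edgeR 4.0.16), scaling by trimmed read totals, ratios of FPKM, a pseudocount of 1 or 10, and a minimum of 10 or 50 reads. Further ones were 1 unigene per NR match or assembled gene, and leaving out 16 members caught by a word list of other meanings. This list differs from the division by role. It holds the 12 cyclins and kinases of other roles, ribosome-recycling factor, CKS, cyclin G and cyclin J. Restrictions to the 50 members with replication, repair or division roles and to members without the DNA ligase 1 names were added after seeing the data. Python 3.11.15, scipy 1.17.1, pandas 2.3.3 and R 4.3.3 were used.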

Additional observations from a re-analysis of the deposited data

Results flagged for a closer look

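Subunit B of DNA polymerase alpha (c186460_g5_i1) differed from the control in opposite directions at the 2 extremes, with a log2 ratio of 2.19 in T4/T25 and of -4.16 in T40/T25. The counts behind them are 77 reads in T4, 13 in T25 and 1 in T40. With a pseudocount of 10 the ratio of T40 to T25 becomes 0.347, in the same direction. The difference between the 2 responses was not tested, since each temperature has 1 library, and both ratios share the T25 count.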

How the results depend on the processing

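No direction of a member count, median or named ratio reversed under any alternative. TMM scaling raised every T40/T4 ratio by 0.227 on the log2 scale and every T40/T25 ratio by 0.189, and scaling by trimmed reads raised them by 0.283 and 0.156, with the split into higher and lower as before. With a pseudocount of 10, members at least 4-fold apart became 2 higher and 4 lower in T4/T25, 8 and 6 in T40/T25, and 7 and 7 in T40/T4, since low counts shrink. The same pseudocount took the T4/T25 ratio of RFC2 to 2.65 and that of CDK9 to 6.10, and the T40/T25 ratio of RFC4 to 5.71 and that of CDK9 to 13.5. It took the unigene c185430_g4_i1 named DNA ligase 1 to a ratio of 0.0487 in T40/T25 and 0.0930 in T40/T4, and polymerase alpha subunit B to 2.91 in T4/T25. For that subunit the T40/T25 ratio became 0.347 and the T40/T4 ratio 0.119. With a minimum of 50 reads in the higher library, T4/T25 kept 6 higher and 9 lower, of which 4 and 5 were at least 4-fold apart. With the 50 members of replication, repair or division roles only, 7 were higher in T4/T25, and lower members were 7 in T40/T25 and 8 in T40/T4. Those at least 4-fold lower were 5 in T40/T25 and 5 in T40/T4. Fewer unigenes are counted, and those left out were lower more often than those kept. Of the members left out, 6 of 14 listed were lower in T40/T25 and 6 of 11 in T40/T4. Those at least 4-fold lower in T4/T25 fell from 9 to 6 with these roles only, and also without the 16 members caught by the word list of other meanings. Other counts moved by less than 1.5 times. No paired analysis was possible because each temperature has 1 library, and leaving out a library leaves no comparison. Ratios of members with under 50 reads are limited by depth.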
